A study of Mus musculus with 6 samples.

Results

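The genes described here are 9 of the 55487 genes in the deposited count table: Gata4, Wt1, Bnc1, Msln, Podxl, Upk3b, Lrrn4, Gpm6a and Crb2. They were selected on their log2 change between P6 and P1, among the lowest of all genes, so that difference is given here as a description, with no test. The libraries held poly(A) RNA of wild-type mouse embryonic fibroblasts (MEFs), which are primary cultures of embryonic tissue, at passage 6 (P6, labelled senescent) and at passage 1 (P1, labelled non-senescent). At each passage there was 1 library of cells given 20 µM α-amyrin, 1 of cells given 20 µM β-amyrin, both for 3 days, and 1 of vehicle-treated cells, so the 6 conditions had 1 library each. The amyrins are isomeric plant triterpene alcohols: in β-amyrin both methyl groups at the outer end of the last ring sit on the same carbon, and in α-amyrin they sit on neighbouring carbons. The labels do not say how many embryos were pooled, whether each library had a culture of its own, or whether P6 was grown from the isolate sampled at P1, so isolate and passage cannot be told apart. The p-values below measure the spread among these libraries, which may be technical.

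The mesothelium is the flat epithelium that covers the lungs, heart, liver and gut and lines the body cavities. It arises from the coelomic epithelium of the embryo, which also gives cells to the gonads, the epicardium and the connective tissue of several organs. These epithelia carry a set of transcription factors and a coat of apical membrane proteins, and both kinds are among the 9 genes. In the embryo, some cells of this epithelium are known to leave it and become mesenchymal.

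Among the 9, the transcription factors are Gata4, Wt1 and Bnc1. Gata4 (chr14:63198922-63271692, minus strand, mm10) encodes a zinc finger activator of heart, gonad and coelomic epithelium. Wt1 (chr2:105126529-105173616, plus strand) encodes the Wilms tumour zinc finger protein, needed for kidney, gonad and epicardium and kept in adult mesothelium and podocytes. Bnc1 (chr7:81966653-81992307, minus strand) encodes basonuclin 1, a zinc finger protein of stratified epithelium, germ cells and mesothelium. The surface proteins of the group begin with Msln (chr17:25748613-25754378, minus strand), the gene of mesothelin, a membrane-anchored glycoprotein that binds the mucin encoded by Muc16. Podxl (chr6:31519488-31563981, minus strand) encodes podocalyxin, a heavily glycosylated sialomucin of the apical membrane of podocytes, endothelium and mesothelium. Upk3b (chr5:136038496-136046487, plus strand) encodes uroplakin 3b, a membrane protein related to the urothelial plaque proteins. Lrrn4 (chr2:132868305-132880891, minus strand) encodes a leucine-rich repeat membrane protein. Gpm6a (chr8:54954843-55060871, plus strand) encodes a proteolipid-family glycoprotein best known from neurons. Crb2 (chr2:37776249-37799103, plus strand) encodes Crumbs homologue 2, which sets apical-basal polarity.

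The promoters of 5 of the 9 genes were found in the RefSeq-derived table of build GRCm38.p6, the NCBI name of mm10. Each window had 250 bases before and 50 bases after the annotated start. The 4 below are shown because genes picked for the same fall at P6 had promoters of very different composition. Bnc1 had a GC content of 83.3% and 50 CpG dinucleotides in 300 bases, against a median of 52.7% and 7 CpG over the 32851 promoters of the table. Crb2, not printed, had 69.3% and 15 CpG, and Upk3b had 58.7% and 2 CpG. Lrrn4 had 58% and 7 CpG, and Gpm6a had 36% and 6 CpG. Capitals mark matches on either strand to 3 of the short motifs searched: the GATA motif (AGATAA or AGATAG or TGATAA or TGATAG), the TEAD motif (GGAATG) and the SP1 GC box (GGGGCGG).
Bnc1 (chr7:81992250-81992549, minus strand): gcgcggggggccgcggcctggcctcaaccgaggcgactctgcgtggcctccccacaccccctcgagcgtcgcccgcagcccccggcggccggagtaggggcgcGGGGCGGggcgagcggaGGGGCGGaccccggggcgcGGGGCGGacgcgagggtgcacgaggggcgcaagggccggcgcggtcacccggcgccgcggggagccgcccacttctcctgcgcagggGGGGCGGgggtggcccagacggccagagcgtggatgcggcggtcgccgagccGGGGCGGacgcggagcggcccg
Upk3b (chr5:136038246-136038545, plus strand): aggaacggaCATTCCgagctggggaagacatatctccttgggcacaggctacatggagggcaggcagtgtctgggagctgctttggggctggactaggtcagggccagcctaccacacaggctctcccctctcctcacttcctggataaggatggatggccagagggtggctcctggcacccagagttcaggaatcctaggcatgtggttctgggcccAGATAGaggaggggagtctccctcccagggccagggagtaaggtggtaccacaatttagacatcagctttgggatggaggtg
Lrrn4 (chr2:132880813-132881112, minus strand): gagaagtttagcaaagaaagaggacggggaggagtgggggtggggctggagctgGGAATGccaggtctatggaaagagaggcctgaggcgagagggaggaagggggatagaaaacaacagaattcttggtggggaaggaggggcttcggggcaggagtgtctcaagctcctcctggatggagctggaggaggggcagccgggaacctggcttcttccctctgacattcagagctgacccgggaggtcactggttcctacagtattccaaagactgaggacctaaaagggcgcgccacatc
Gpm6a (chr8:54954478-54954777, plus strand): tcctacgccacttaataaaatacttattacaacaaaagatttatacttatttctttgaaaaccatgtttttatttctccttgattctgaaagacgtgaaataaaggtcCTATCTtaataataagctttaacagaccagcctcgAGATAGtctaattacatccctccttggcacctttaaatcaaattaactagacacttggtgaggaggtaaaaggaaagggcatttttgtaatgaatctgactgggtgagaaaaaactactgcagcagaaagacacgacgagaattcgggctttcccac
The GATA motif, the sequence that GATA factors such as Gata4 read, matched once in Upk3b, at position -32 from the start, and at positions -142 and -107 in Gpm6a. It occurred in 29.8% of all promoters in the table. The TEAD motif matched once in Upk3b and once in Lrrn4, against 14.7% of all promoters. The GC box matched at 5 places in Bnc1 and 1 in Crb2, against 23.2% of all promoters. The remaining searches, the E-box CACCTG bound by Snail and Zeb repressors (20.2% of all promoters) and the WT1 motif GCGGGGGCG or GCGTGGGCG (3.47%), had no match in the 5 windows. These are descriptions of letters in a window, and no motif was shared by all 5.

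All 9 genes had between 255 and 1993 reads in every P1 library and between 1 and 30 reads in every P6 library. Every P6 library was below every P1 library for all 9, as it was for 32.2% of the 16962 genes tested. The level in CPM (reads scaled to a common library size by the TMM method) summed over the 9 genes was 3.66, 4.46 and 3.00 in P6 cells given α-amyrin, β-amyrin and vehicle, against 229, 198 and 184 in the same order at P1. In bulk RNA, fewer cells of a type and less RNA per cell cannot be told apart.

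Gata4 had 1, 2 and 1 reads in P6 α-amyrin, β-amyrin and vehicle libraries, against 388, 308 and 255 reads at P1. Its CPM was 0.0531, 0.0796 and 0.0423 at P6 and 13.2, 12.4 and 9.78 at P1. Gata4 was thus near 0 in all P6 libraries and moderately expressed in all P1 libraries, with the lowest log2 change of any gene tested, -7.51 ± 0.23 (standard error, SE). Pooled over treatments, the P6 level was 0.50% of the P1 level, with a 95% interval from counting error alone of 0.136% to 1.28%. Wt1 had 1, 8 and 7 reads in the P6 α-amyrin, β-amyrin and vehicle libraries, against 494, 410 and 349 reads at P1. The P6 α-amyrin library was the lowest for Wt1, at 0.0531 CPM against 0.318 and 0.296 CPM in the other P6 libraries, and all P1 libraries lay between 13.4 and 16.8 CPM. Bnc1 had 5, 14 and 7 reads in P6 cells given α-amyrin, β-amyrin and vehicle, against 419, 317 and 274 reads at P1. Bnc1 kept the most of its P1 level among the 9, at 3.06% (1.99% to 4.51%). Its log2 change was -5.001 ± 0.21.

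Msln had 0.690, 0.955 and 0.719 CPM in the P6 α-amyrin, β-amyrin and vehicle libraries, against 37.0, 30.6 and 34.2 CPM at P1. The mesothelin gene was therefore still counted in every P6 library, with 13 to 24 reads, and its P6 level was 2.34% of the P1 level (1.75% to 3.06%). Podxl had 2, 16 and 3 reads in P6 cells given α-amyrin, β-amyrin and vehicle, against 512, 334 and 333 reads at P1. The P6 β-amyrin library stood apart for Podxl at 0.637 CPM, against 0.106 and 0.127 CPM in the other P6 libraries. The log2 change of Podxl was -5.52 ± 0.35 over all 6 libraries and -6.93 without either the P6 or the P1 β-amyrin library. Upk3b had the highest CPM of the 9 at both passages, with 1.49, 1.19 and 0.931 CPM in P6 α-amyrin, β-amyrin and vehicle libraries, against 67.7, 55.3 and 52.5 CPM at P1. With 22 to 30 reads per P6 library, Upk3b had the narrowest interval, 1.59% to 2.50% of its P1 level around a value of 2.01%.

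Lrrn4 had 6, 5 and 4 reads in P6 cells given α-amyrin, β-amyrin and vehicle, against 851, 564 and 599 reads at P1. It was second to Gata4 in the size of the difference, with a log2 change of -6.76 ± 0.15 and 0.885% of the P1 level left (0.495% to 1.46%). Gpm6a had 9, 5 and 4 reads in the P6 α-amyrin, β-amyrin and vehicle libraries, against 681, 559 and 434 reads at P1. At 1.28% (0.756% to 2.03%), the interval of Gpm6a overlapped those of Gata4 and Lrrn4. Crb2 had 0.212, 0.318 and 0.254 CPM in P6 cells given α-amyrin, β-amyrin and vehicle, against 11.04, 11.74 and 11.16 CPM at P1. Crb2 was the steadiest of the group at P1, where its highest library was 1.06 times its lowest.

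**Figure D1:**
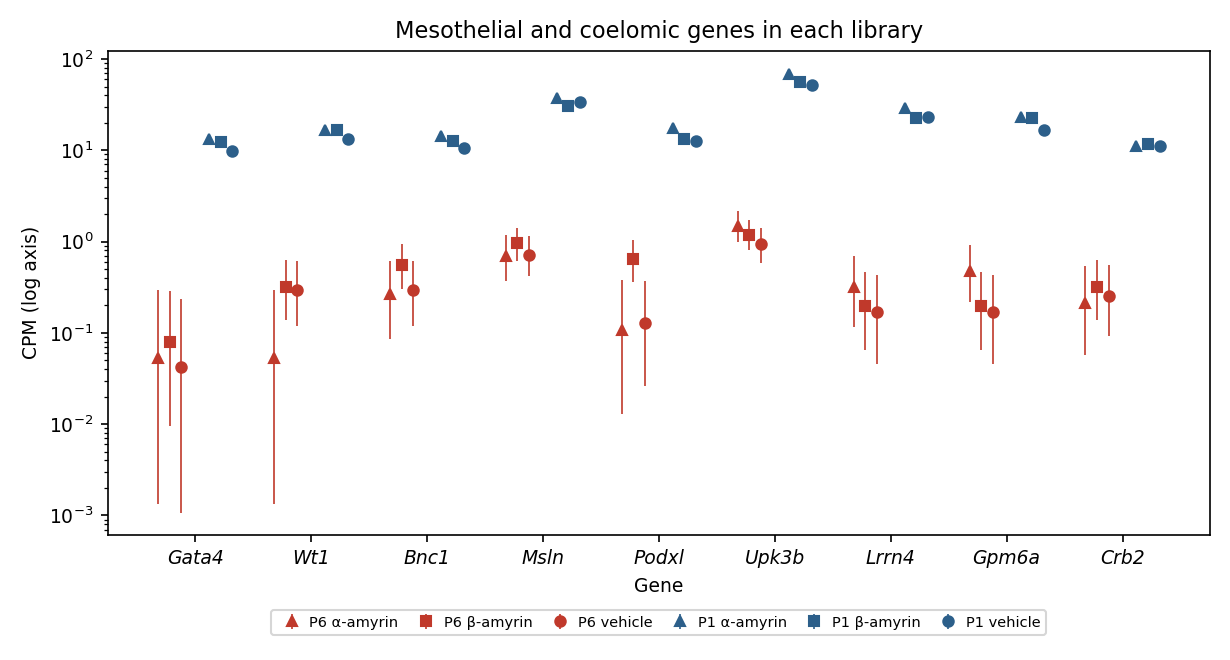
Level of the 9 genes in each library, in CPM on a log axis, with P6 libraries (red) left of P1 libraries (blue); bars are 95% counting intervals of single libraries. For all 9 genes the 3 P6 libraries lie below the 3 P1 libraries, and the spread among P6 libraries, where reads number 1 to 30, is wider than among P1 libraries.

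The difference had a similar size in each treatment, but the 9 genes were picked for it over these same libraries, so this is a description. With so few P6 reads, the prior count used below also limits how low a ratio can go. The median log2 ratio of the 9 genes, P6 over P1 with a prior count of 2, was -5.59 in the α-amyrin pair of libraries, -5.37 in the β-amyrin pair and -5.70 in the vehicle pair. Over all tested genes the median of the same ratio was 0.01 for α-amyrin, 0.00 for β-amyrin and 0.00 for vehicle. The values ranged from -6.97 (Wt1) to -5.24 (Crb2) with α-amyrin, from -6.34 (Lrrn4) to -4.23 (Podxl) with β-amyrin, and from -6.53 (Lrrn4) to -4.81 (Bnc1) with vehicle. Because the P6 reads were so few, the order of the genes is loose: counting intervals of Upk3b, Podxl, Msln, Crb2 and Bnc1 overlapped one another. The interval of Gata4 ended at 1.28%, below the lower ends for Upk3b, Msln, Crb2, Podxl and Bnc1.

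**Figure D2:**
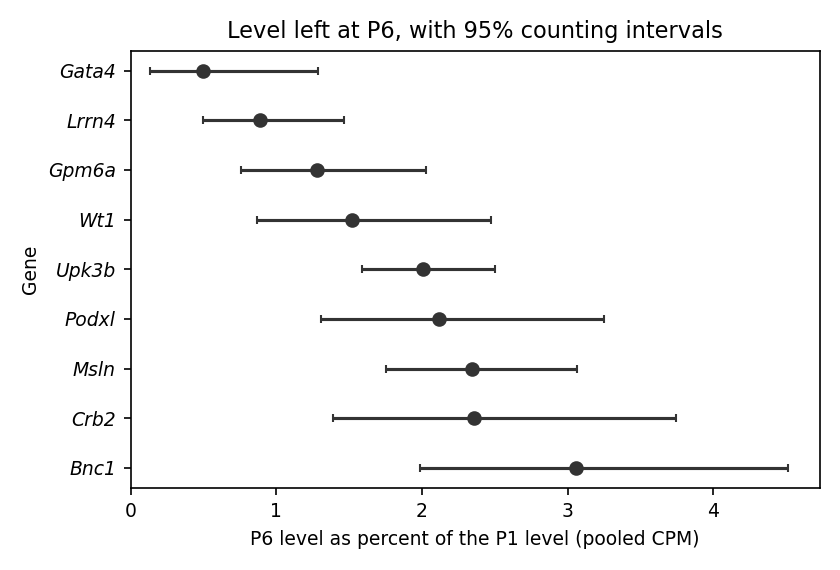
Pooled P6 level of each gene as a percentage of its pooled P1 level, with 95% counting intervals, ordered by value. Gata4 is lowest at 0.50% and Bnc1 highest at 3.06%.

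The members were picked among the largest falls. In a ranking by log2 change they held ranks 1 to 8 and rank 10. It covered genes with a mean of at least 5 CPM, an adjusted p below 0.05 and a lower CPM at P6 in each treatment. Genes with a lower mean CPM were outside it, among them Myh3 (-6.98), Tcf21 (-6.48) and Krt8 (-6.37). Crb2 at rank 8 was at -5.39 and Bnc1 at rank 10 was at -5.001. Myh6, a cardiac myosin gene at rank 9 with -5.37, is not a member, so rank alone did not set membership. Acan, the cartilage proteoglycan gene at rank 11 with -4.78, is not a member either. Desmin (Des, -4.56) and the endocytic receptor gene Lrp2 (-4.08) followed.

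Levels can be compared between genes only per length, in the authors' FPKM. In P1 cells the order was Upk3b at 17.1 ± 2.55 FPKM (SD over the 3 libraries of different treatments, n = 3, as for the next values), Msln at 11.4 ± 1.20, Lrrn4 at 7.17 ± 1.20 and Gpm6a at 6.84 ± 1.24 FPKM. Gata4 (3.13 ± 0.487 FPKM), Bnc1 (2.81 ± 0.484), Podxl (2.73 ± 0.508), Wt1 (2.66 ± 0.357) and Crb2 (1.73 ± 0.0294 FPKM) were lower. Lrrn4 and Gpm6a differed by less than either SD, as did each pair of neighbours in the order Gata4, Bnc1, Podxl and Wt1. The surface proteins Upk3b and Msln thus had more RNA per length than any of the 3 transcription factors. In P6 cells no member was above 0.438 FPKM in any library, and Wt1 was listed at 0 FPKM in the P6 α-amyrin library, which had 1 Wt1 read.

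Genes named for mesothelium beyond the 9 mostly moved the same way. Of a list of 20 such genes, 18 were tested in P6 against P1: 14 fell, 2 rose and 2 did not pass the threshold, by the quasi-likelihood test of edgeR at a Benjamini-Hochberg adjusted p below 0.05. The median log2 change was -2.01, against 0.00 over all genes tested, of which 29.1% fell and 30.0% rose. The list was drawn up with earlier results of these libraries known and is no independent evidence of its direction. Epithelial keratin genes fell, with log2 changes of -6.37 ± 0.32 for Krt8 (edgeR adjusted p = 1.37e-05), -4.89 ± 0.33 for Krt18, -3.51 ± 0.21 for Krt7 and -1.88 ± 0.09 for Krt19. Krt8 had 0.159, 0.0398 and 0.0423 CPM in the P6 α-amyrin, β-amyrin and vehicle libraries, against 6.63, 7.36 and 5.71 CPM at P1. The groups of Krt8 did not overlap, and its level at P6 was 1.13% of that at P1 (0.365% to 2.65%), within the range of the 9 genes.

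Some partners of the surface proteins were lower at P6, and the whole list of relatives and partners is counted further on. Muc16, which encodes the mucin bound by mesothelin, had 0.159, 0.199 and 0.0423 CPM in P6 α-amyrin, β-amyrin and vehicle cells, against 3.84, 3.82 and 3.49 CPM at P1, a log2 change of -4.76 ± 0.34 (edgeR adjusted p = 4.53e-05). Upk1b, a tetraspanin uroplakin and so a partner class of Upk3b, had 3.08, 2.83 and 2.88 CPM at P6, against 47.9, 42.4 and 41.3 CPM at P1. It fell by 3.90 ± 0.08 (edgeR adjusted p = 8.54e-07). Ezr, whose product ezrin links podocalyxin to actin, fell by 2.15 ± 0.07 (edgeR adjusted p = 4.11e-06). Ezr nevertheless remained at 25.5 to 28.0 CPM at P6, against 104 to 130 CPM at P1, so it kept a larger share of its level than the 9 genes did. Aldh1a2, the retinoic acid synthase of coelomic epithelium, fell with a log2 change of -3.92 ± 0.13, and Rspo1, a secreted Wnt enhancer of coelomic epithelium and gonad, fell by 4.02 ± 0.43 (edgeR adjusted p = 3.98e-06 and 0.000236).

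Some genes of the list went the other way or did not pass. Efemp1, an extracellular matrix gene, had 320, 274 and 238 CPM in P6 cells given α-amyrin, β-amyrin and vehicle, against 217, 153 and 125 CPM at P1, and rose by 0.78 ± 0.07 (edgeR adjusted p = 0.000148). Nkain4, which encodes a Na,K-ATPase-interacting protein, rose by 0.77 ± 0.15 (edgeR adjusted p = 0.00387). Cdh1, the E-cadherin gene, was at 0.159 to 0.438 CPM at P6, against 0.161 to 0.544 CPM at P1, and did not pass the test (-0.49 ± 0.64, edgeR adjusted p = 0.533). Prg4, the lubricin gene, was at 0.14 ± 0.06 (edgeR adjusted p = 0.102). Calb2 and Itln1, encoding calretinin and intelectin 1, had no read in any library. Mesothelial markers were therefore present in part at P1, with keratin and uroplakin RNA but without Calb2 or Itln1.

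Transcription factors of coelomic epithelium, lateral mesoderm and epicardium were mixed. Of 20 listed, 17 were tested: 12 fell, 2 rose and 3 did not pass, with a median log2 change of -1.16. Gata6, a relative of Gata4 with which it shares targets in the heart, had 4.62, 4.81 and 4.57 CPM in P6 α-amyrin, β-amyrin and vehicle cells, against 22.7, 23.2 and 22.6 CPM at P1. It fell by 2.29 ± 0.09 (edgeR adjusted p = 5.11e-06), against the -7.51 described for Gata4. Gata5 had no read at P6 and 34 reads in all at P1. It was 9.53-fold lower at P6 if a floor of 3 reads is put in for the P6 group. The 95% counting interval of its P6 level reached up to 13.6% of the P1 level. Zfpm2, the FOG2 cofactor of Gata4, fell by 0.74 ± 0.08 and remained at 15.7 to 16.4 CPM at P6, against 25.01 to 28.63 CPM at P1. Bnc2, the paralogue of Bnc1, fell by 1.16 ± 0.11 (edgeR adjusted p = 0.000142) and remained at 12.2 to 15.8 CPM at P6, against 29.6 to 33.9 CPM at P1. For both the GATA and the basonuclin pair, the relative kept a larger share of its P1 level than the member did: 20.5% for Gata6 and 44.9% for Bnc2.

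Factors of epicardium and gonad gave further falls. Tcf21, a basic helix-loop-helix factor of epicardium and kidney mesenchyme, had 1 read over the P6 libraries against 143 over the P1 libraries, or 0.831% of the P1 level (0.0209% to 4.71%, edgeR adjusted p = 0.000106). Isl1 and Tbx20, factors of heart progenitors, fell by 4.48 ± 0.51 and 4.39 ± 0.27. Nr5a1, the steroidogenic factor of the gonad, fell by 3.82 ± 0.75 and had at most 1.09 CPM at P1. Lhx2 fell by 1.52 ± 0.22, Hand2 by 1.49 ± 0.12 and Emx2 by 1.08 ± 0.10. Not all epicardial genes followed: Tbx18, an epicardial T-box gene, rose by 0.55 ± 0.11 and Tbx5 by 0.41 ± 0.11 (edgeR adjusted p = 0.00421 and 0.0191). Osr1 was at 0.07 ± 0.11, Lhx9 at 0.04 ± 0.10 and Foxf1 at -0.23 ± 0.12, none past the threshold. Nr2f2 fell by 0.22 ± 0.08 (edgeR adjusted p = 0.0409), and that call was kept in 7 of the 13 settings tried. The count that rose was 1 in place of 2 when the P6 β-amyrin, P6 vehicle, P1 β-amyrin or P1 vehicle library was left out.

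Relatives and binding partners of the 9 were listed as well, 41 genes of which 32 were tested. Of these, 20 fell, 4 rose and 8 did not pass, with a median log2 change of -0.37. The 4 that rose, named here after their values were seen, were Podxl2 (1.23 ± 0.10), Gpm6b (1.16 ± 0.08), Gata2 (0.68 ± 0.10) and Mpp5 (0.15 ± 0.05). Podxl2 is the paralogue of Podxl and was at 15.5 to 17.0 CPM at P6, against 6.43 to 7.82 CPM at P1 (edgeR adjusted p = 6.43e-05). Gpm6b, the paralogue of Gpm6a, was at 54.0 to 64.2 CPM at P6, against 25.1 to 28.0 CPM at P1 (edgeR adjusted p = 3.37e-05). Podxl and Gpm6a were thus lower at P6 while these paralogues rose. Partners that did not pass included moesin (Msn, 0.10 ± 0.06), a relative of ezrin. Wt1os, annotated as the antisense transcript of Wt1, had no read at P6 and 41 reads at P1. It was 11.5-fold lower if a floor of 3 reads is put in for the P6 group. The 95% counting interval of its P6 level reached up to 11.2% of the P1 level. The sources used here do not state whether counting used strand, so reads of Wt1 and Wt1os cannot be told apart.

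**Figure D3:**
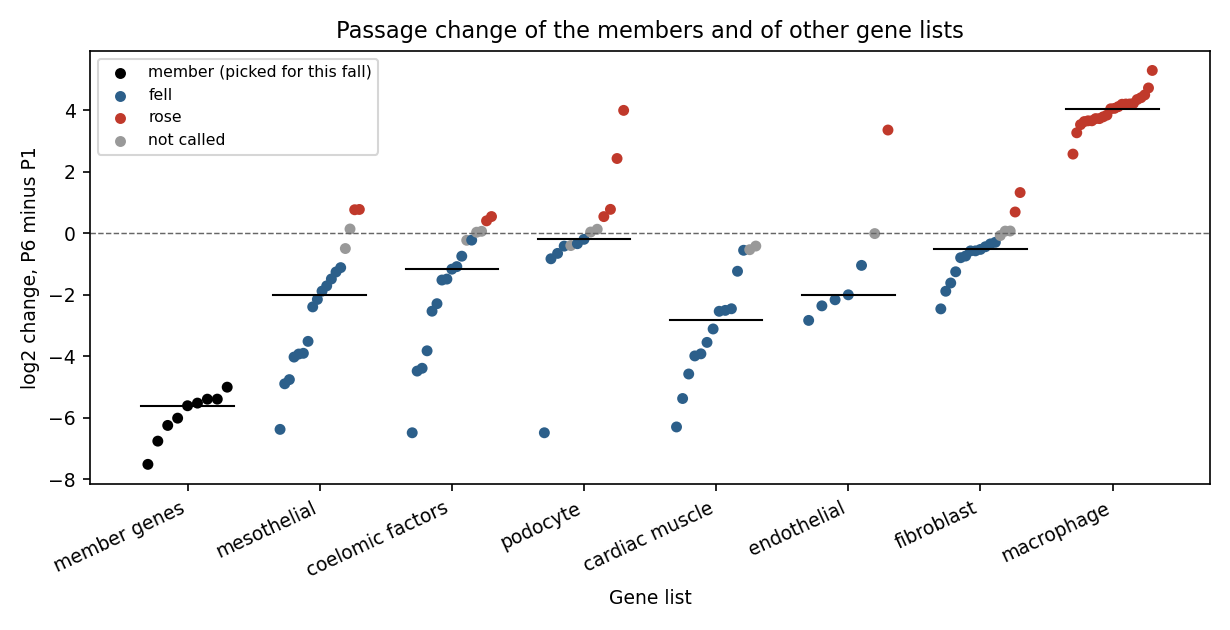
Log2 change, P6 minus P1, of each tested gene in 8 lists; bars are list medians, and colours give the edgeR call (the 9 members, in black, were picked for this difference and have no call). The members lie at or below -5.001, the mesothelial list has its median at -2.01, and the macrophage list lies above 0 throughout.

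Markers of other cell types moved with passage too, and their part in the values of the 9 genes was not tested. All 14 cardiac muscle genes were tested: 12 fell, none rose and 2 did not pass, with a median of -2.82. The cardiac myosin gene Myh6 fell by 5.37 ± 0.25, and the log2 change was -3.92 ± 0.21 for troponin T (Tnnt2) and -6.29 ± 0.38 for cardiac actin (Actc1). The summed cardiac level was 6.37 to 8.08 CPM at P6, against 48.6 to 63.1 CPM at P1. Gata4 is itself a cardiac factor, and in these bulk libraries its reads cannot be divided between cell types. Podocyte markers, relevant because Wt1, Podxl and Crb2 are podocyte genes, were split: 6 of 13 tested genes fell, 4 rose and 3 did not pass, with a median of -0.19. Kirrel, a slit diaphragm protein, fell by 0.65 ± 0.05, while Ptpro, which encodes a receptor tyrosine phosphatase, rose by 3.997 ± 0.18.

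Endothelial genes, among which Podxl can be counted, gave 5 falls and 1 rise in 7 tested of 15 listed, with a median of -1.998. Flt1 fell by 2.36 ± 0.05, Kdr by 2.16 ± 0.16 and Erg by 2.83 ± 0.28, whereas Vwf was the gene that rose (3.36 ± 0.60). The summed level was 37.7 to 54.5 CPM at P6, against 149 to 155 CPM at P1, and Sox17 and Cldn5 had no read in any library. Flt1 alone had 105 to 116 CPM at P1, so most of the P1 sum rests on it. Pecam1 and Cdh5, named here after their values were seen, had too few reads to be tested. They had 18 and 25 reads over the P1 libraries, and 33 and 14 over the P6 libraries. Of 14 genes of other epithelia only 4 were tested, of which 1 fell: Krt14, with 4 reads at P6 against 214 at P1. The epithelial sum was 6.72 to 7.996 CPM at P6, against 10.8 to 12.4 CPM at P1. All 22 macrophage genes rose, with a median of 4.06, and their summed level was 4463 to 6278 CPM at P6, against 52.2 to 443 CPM at P1. The P1 β-amyrin library was the lowest in macrophage RNA, at 52.2 CPM, and any link to the level of the 9 genes was not tested.

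The fibroblast label was checked against 17 marker genes. Their summed level was 51860 to 57729 CPM at P6, against 37653 to 45480 CPM at P1, so fibroblast marker RNA was abundant at both passages. Of the 17 genes, 12 fell, 2 rose and 3 did not pass, with a median of -0.52. Pdgfra fell by 2.46 ± 0.08 and Postn by 1.25 ± 0.07, and Fn1, the fibronectin gene, rose by 1.33 ± 0.06. Fn1 alone had 28955 to 30466 CPM at P6, against 10795 to 13589 CPM at P1, so the higher sum at P6 rests on it. Cdkn2a, a senescence marker, was at 115 to 116 CPM in P6 libraries, against 17.2 to 19.4 CPM in P1 libraries. Measured with it, Lmnb1 was at 24.2% of its P1 level and the proliferation gene Mki67 at 52.5%. Mki67 RNA thus remained at P6, at 77.7 to 96.1 CPM. Xist was at 692 to 773 CPM at P6, against 690 to 733 CPM at P1, and 4 Y-linked genes had no read in any library. Total counts ran from 18798418 to 28752332 reads, and the smallest library was P6 α-amyrin.

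The genes whose profile over the 6 libraries was most like the median profile of the 9 were sought among all other tested genes. Likeness was the root mean square (RMS) difference of centred log2 CPM over the 6 libraries. The 8 nearest were Krt8 (RMS 0.43), Myh6 (0.51), Des (0.55), Tph1 (0.59), Cgn (0.59), Myh3 (0.62), Tcf21 (0.64) and Krt14 (0.64). The members' own values ran from 0.19 for Msln and 0.20 for Upk3b to 0.56 for Wt1. Krt8 and Krt14 encode keratins, and Cgn encodes cingulin of tight junctions. Des, Myh6 and Myh3 are muscle genes, and Tph1 encodes tryptophan hydroxylase. Cgn was at 0.106, 0.0796 and 0.254 CPM in P6 α-amyrin, β-amyrin and vehicle cells, against 7.10, 6.92 and 6.33 CPM at P1. The nearest genes thus included epithelial and muscle genes alike.

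The nearest protein-coding gene on each side of the 9 was taken, leaving out genes that overlap a member. Of these 18 genes, 10 were tested: 3 fell, 3 rose and 4 did not pass. These shares are close to the 29.1% of all tested genes that fell and the 30.0% that rose. Lhx2, also on the list of factors, is the neighbour with the lowest change. It is not directly beside Crb2, because Dennd1a, which overlaps Crb2, lies between them. The other falls were Strbp beside Crb2 (-0.26 ± 0.06) and Crls1 beside Lrrn4 (-0.22 ± 0.06). Wdr17 beside Gpm6a rose by 1.496 ± 0.33, Ciao3 beside Msln by 0.42 ± 0.07 and Mkln1 beside Podxl by 0.19 ± 0.06. The 3′ end of Crb2 overlaps that of Dennd1a on the other strand, and Dennd1a rose by 0.43 ± 0.08 (edgeR adjusted p = 0.00345). Bnc1 overlaps the pseudogene 4833418N17Rik at its start, which had 0, 2 and 0 reads in P6 α-amyrin, β-amyrin and vehicle cells, against 12, 12 and 3 reads at P1. Gpm6a spans 5 short annotated transcripts with at most 3 reads in any library.

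The amyrins were not used to pick the 9 genes, so their effect was tested. With so few P6 reads, the fitted values of the 9 rest mainly on the single P1 libraries. For α-amyrin, Upk3b was at 0.40 in the fit and 0.37 in the P1 libraries alone, and Lrrn4 at 0.36 and 0.33. The fit and the P1 ratios given further on are therefore not separate evidence. In the fit of treatment and passage to all 6 libraries, no member passed an adjusted p of 0.05 for α-amyrin against vehicle, where 0.0295% of all genes tested did (2 higher and 3 lower). At an unadjusted p below 0.05 there were 4 members, Upk3b, Gpm6a, Lrrn4 and Gata4, and 1995 (11.8%) of the 16962 genes tested. Upk3b was 0.40 ± 0.10 higher on the log2 scale with α-amyrin (95% interval 0.17 to 0.63, edgeR adjusted p = 0.224). Gpm6a was at 0.53 ± 0.18 (edgeR adjusted p = 0.331), Lrrn4 at 0.36 ± 0.13 (0.370) and Gata4 at 0.43 ± 0.17 (0.400). Crb2 had the lowest value, -0.03 ± 0.17, and the median of the 9 was 0.40, against 0.01 over all genes tested. Without the P1 α-amyrin library, so that the α-amyrin value rested on P6 reads, Gpm6a was at 1.57, Lrrn4 at 0.76 and Gata4 at -0.0072. Without the P1 vehicle library, Gpm6a was at 0.96, Lrrn4 at 0.74, Upk3b at 0.66 and Gata4 at 0.67.

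For β-amyrin against vehicle no member was called, where 0.00590% of all genes tested were (1 higher), and none had an unadjusted p below 0.05, which 1739 (10.3%) of the genes tested had. The values ran from -0.08 ± 0.15 for Msln to 0.42 ± 0.18 for Gpm6a, whose 95% interval held 0 and ended at 0.84 (edgeR adjusted p = 0.490). In the direct comparison of the isomers, α-amyrin minus β-amyrin, no member was called either, where 0.0590% of all genes tested were (8 higher and 2 lower). Lrrn4 was at 0.36 ± 0.13 (95% interval 0.05 to 0.68, edgeR adjusted p = 0.491) and Upk3b at 0.29 ± 0.10 (0.06 to 0.52, edgeR adjusted p = 0.460), both with an unadjusted p below 0.05, as 1563 (9.21%) of the genes tested had. Without the P1 α-amyrin library, Lrrn4 was at 0.77, and without the P1 β-amyrin library Upk3b was at 0.195. Crb2 was lowest at -0.12 ± 0.17 (-0.53 to 0.28). The intervals of the 9 reached from -0.62 to 0.95, both ends belonging to Podxl, whose interval was the widest.

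Within P1, where reads were ample, 8 of the 9 genes were higher in the α-amyrin than in the vehicle library, and 49.3% of all tested genes were. The median log2 ratio of the 9 was 0.37. This was not particular to the 9. The cardiac list summed to 63.1 CPM with α-amyrin against 48.6 CPM with vehicle, and the mesothelial list to 1072 against 923 CPM. The fibroblast, endothelial and macrophage sums were lower with α-amyrin than with vehicle. Abundant genes lead these sums, and genes within a list went both ways. In the fibroblast list, Fn1 had 10795 CPM with α-amyrin against 13589 CPM with vehicle, while Pdgfra had 189 against 121 CPM. In the mesothelial list, Efemp1 had 217 against 125 CPM, while Igfbp5 had 380 against 415 CPM. Gpm6a had 23.1 CPM with α-amyrin against 16.6 CPM with vehicle, a ratio of 1.39 with a counting interval of 1.23 to 1.57. Podxl had 17.4 against 12.8 CPM (1.36, 1.18 to 1.57), and Upk3b had 67.7 against 52.5 CPM (1.29, 1.20 to 1.38). Msln (1.08, 0.990 to 1.18) and Crb2 (0.989, 0.842 to 1.16) had intervals that held 1. No member reached a 2-fold difference with either isomer, which 0.330% of tested genes did for α-amyrin and 0.613% for β-amyrin at 5 CPM or more. These intervals cover counting error only, and 1 library per condition gives no check on variation between cultures.

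For β-amyrin at P1, 7 of the 9 genes were higher than with vehicle, against 50.2% of all tested genes, with a median log2 ratio of 0.08. Gpm6a had 22.5 CPM with β-amyrin against 16.6 CPM with vehicle, a ratio of 1.35 (1.19 to 1.53), close to its ratio with α-amyrin. The transcription factors were also above 1: Gata4 at 1.27 (1.07 to 1.501), Wt1 at 1.23 (1.07 to 1.42) and Bnc1 at 1.21 (1.03 to 1.43). Msln was lower, 30.6 CPM against 34.2 CPM (0.897, 0.813 to 0.989). Set directly against each other at P1, 8 of the 9 genes were higher with α-amyrin than with β-amyrin, against 50.7% of all tested genes. The α-amyrin library had more Podxl (1.295-fold, 1.13 to 1.49), Lrrn4 (1.28, 1.15 to 1.42), Upk3b (1.22, 1.14 to 1.31) and Msln (1.21, 1.10 to 1.33), while Wt1 and Gpm6a differed by 1.02-fold and 1.03-fold with intervals that held 1. Both isomer ratios to vehicle use the same vehicle library.

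**Figure D4:**
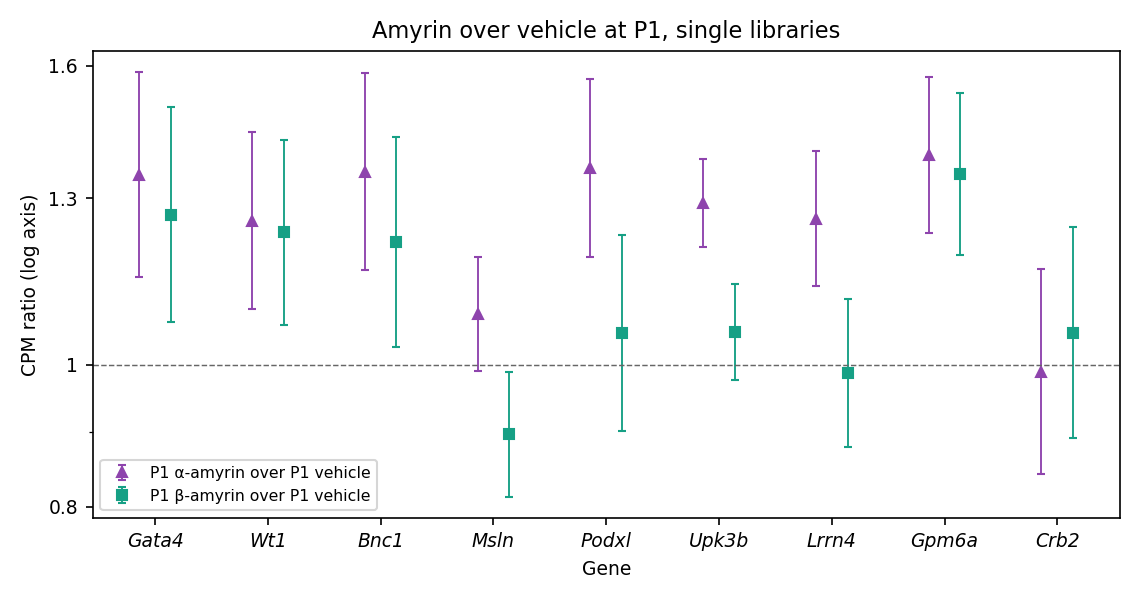
Ratio of CPM in the P1 α-amyrin (triangles) and P1 β-amyrin (squares) library to the P1 vehicle library for the 9 genes, on a log axis, with 95% counting intervals. The α-amyrin ratios run from 0.989 (Crb2) to 1.39 (Gpm6a), and the β-amyrin ratios from 0.897 (Msln) to 1.35 (Gpm6a).

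At P6 the reads were too few for the compounds to be compared gene by gene. With α-amyrin, 4 of the 9 genes were higher than with vehicle, against 53.4% of all tested genes. Between the isomers, 3 of the 9 were higher with α-amyrin than with β-amyrin, against 50.8% of all tested genes. With β-amyrin all 9 were higher than with vehicle, against 51.7% of all tested genes, but on 2 to 30 reads per gene with β-amyrin and 1 to 22 with vehicle. Summed over the 9, the P6 libraries held 69 reads with α-amyrin, 112 with β-amyrin and 71 with vehicle. Whether amyrin acted differently at the passages was asked with a passage-by-amyrin term, with both isomers counted as amyrin. Its error rests on the difference between the 2 isomer libraries of a passage, beside 1 vehicle library. A lack of calls is therefore no evidence of an equal response. No gene tested was called by edgeR (0.00%), and 451 (2.66%) had an unadjusted p below 0.05, none of them a member. DESeq2 called 21 genes, and edgeR with no filter beyond 1 read called 159, again none of them a member. The term ran from -0.84 ± 0.81 for Wt1 (95% interval -2.82 to 1.13) to 1.36 ± 1.20 for Podxl (-1.56 to 4.28), and all members had an edgeR adjusted p of 1.00.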

How the data were processed

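Libraries were made with a directional kit, per the labels' protocols. Reads were handled with HISAT2 2.1.0 and featureCounts 1.6.3 on mm10, beside FastQC 0.11.7, SAMtools 1.9 and Trimmomatic 0.38, per the submitters' processing notes, and the sources used here state neither settings nor strand use. The authors deposited raw read counts, the input of every main test, and FPKM values, whose computation is not given, used for levels per length and as an alternative. The 9 genes and all lists were chosen with earlier results of these data known.

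Counts were scaled by TMM in edgeR 4.0.16 (R 4.3.3). The 16962 genes kept by filterByExpr were tested by the quasi-likelihood test with treatment and passage as additive terms. All 9 members were kept through their P1 reads. The fit left 2 residual and 4.83 prior degrees of freedom, with a biological coefficient of variation of 7.72%. The passage-by-amyrin term had a fit of its own. A gene was called at a Benjamini-Hochberg adjusted p below 0.05. Errors are SE, and counting intervals are exact at 95%. Of lists other than the mesothelial and factor lists, up to 3 genes with the smallest adjusted p were named. Some further genes were named after their values were seen. Alternatives used DESeq2 1.42.0 and limma 3.58.1, other filters and scalings, and each library left out. The tests were tried on simulated counts, and figures were drawn with matplotlib 3.10.9.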

Additional observations from a re-analysis of the deposited data

How the results depend on the processing

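The median log2 change of the 9 genes, P6 minus P1, was -5.61, and it was -6.00 with DESeq2, -4.79 with limma on log2(FPKM + 0.1) and -2.02 with limma on log2(FPKM + 1), where the pseudocount exceeds every P6 value of these genes. Leaving out each library gave -5.99 to -5.52. Library size alone, no filter beyond 1 read and passage as the only term kept it within the spread between libraries. The mesothelial counts of 14 fallen and 2 risen genes were the same under all alternatives. The factors that rose numbered 1 to 2 and those that fell 11 to 13. No member was called for any amyrin contrast under any alternative. Calls over all genes were unstable: α-amyrin against vehicle had 5, but 206 with DESeq2, 464 without the filter and 0 to 367 with a library left out. Without the P1 library of an isomer, its contrasts rest on P6 reads, and many values changed sign there. For α-amyrin, Podxl (0.43) ran from -1.67, without P1 α-amyrin, to 1.73, without P1 vehicle, and Wt1 (0.24) from -2.28, without P1 α-amyrin, to 0.33. Upk3b, Lrrn4 and Gpm6a stayed above 0 in all 12 settings, from 0.27 to 0.66, 0.20 to 0.76 and 0.29 to 1.57. Crb2 (-0.03) became 0.0078 with library size alone and ran from -0.38 to 0.024 over left-out libraries, and Gata4 (0.43) ran from -0.0072, without P1 α-amyrin, to 0.67. For β-amyrin, Msln (-0.08) became 0.058 with limma on log2(FPKM + 0.1) and ran from -0.17 to 0.48, the last without P1 β-amyrin, and Gpm6a (0.42) ran from -0.35, without that library, to 0.83. The passage-by-amyrin term of Podxl (1.36) became -0.11 with limma on log2(FPKM + 1) and ran from -0.54, without P6 β-amyrin, to 1.997; it could not be fitted without a vehicle library. The treatment term already sets P6 against P1 within each treatment, and passage alone gave a median of -5.62. No paired analysis was possible because the labels give no replicate numbers that tie libraries to a culture, beyond that match by treatment. In P6 libraries, 1 to 30 reads per member limit every comparison.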

Other observations

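Other lineage lists were measured in the same libraries. Of 15 skeletal muscle genes, 7 were tested in P6 against P1: 4 fell, 1 rose and 2 did not pass the edgeR threshold. Des, the muscle intermediate filament gene, had 2.55, 2.35 and 2.16 CPM in the P6 α-amyrin, β-amyrin and vehicle libraries, against 62.9, 52.9 and 51.5 CPM at P1, and fell by 4.56 ± 0.08 on the log2 scale (edgeR adjusted p = 3.98e-07). The embryonic myosin gene Myh3 had 1 read at P6 and 200 at P1, or 0.594% of the P1 level (0.0150% to 3.35%). The titin gene Ttn fell by 2.62 ± 0.24.

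Of 12 genes linked to the change from epithelium to mesenchyme, all tested, 6 fell, 4 rose and 2 did not pass. The repressor gene Zeb1 rose by 0.69 ± 0.05 and the fibronectin gene Fn1 by 1.33 ± 0.06, while the smooth muscle gene Tagln fell by 0.52 ± 0.04 (edgeR adjusted p = 4.28e-05, 1.12e-05 and 6.28e-05). Of 9 tested neural genes 4 fell, 2 rose and 3 did not pass. Stmn2 rose by 3.98 ± 0.08, Map2 rose by 0.79 ± 0.07 and Ncam1 fell by 1.04 ± 0.05.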
